A study of Homo sapiens with 4 samples.

Results

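The 10 genes described here were the 4 ERBB receptors (EGFR, ERBB2, ERBB3 and ERBB4) and 6 ligands of the epidermal growth factor (EGF) family (TGFA, HBEGF, AREG, EREG, BTC and NRG1). They were taken by symbol from a table of 26364 genes, and all 10 had a row. The cells were Ishikawa cells, a human endometrial adenocarcinoma line, that carried the Y537S change in ESR1, the gene for estrogen receptor alpha. The series addressed the effect of this mutant receptor on transcription. The labels named 2 mutant clones, grown for at least 5 days in hormone-deprived medium and then treated for 8 h with 0.1% DMSO, the vehicle, or with 10 nM estradiol (E2). Each clone gave 1 library per treatment, so the DMSO group and the E2 group had 2 libraries each. All 4 libraries carried the mutant receptor, each clone is a single line, and cells with the normal receptor were not analysed here. The count columns named the clones A4 and B212, which the labels do not tie to clone numbers 1 and 2.

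ERBB receptors are tyrosine kinases of the cell surface that signal in pairs. EGFR binds TGFA, AREG, HBEGF, BTC and EREG, whereas ERBB3 and ERBB4 bind neuregulins such as NRG1, and HBEGF, BTC and EREG can also bind ERBB4. ERBB2 has no known ligand of its own and acts as the preferred partner of the others, and ERBB3 has a weak kinase and relies on its partners. The ligands are made as membrane-bound precursors and are released by metalloproteases. In the uterus, estrogen action on the epithelium is known to involve EGF family ligands.

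The libraries held 71575816 to 85222856 counts. Epithelial markers were present in every library: all 7 on the list (EPCAM, CDH1, KRT7, KRT8, KRT18, KRT19 and MUC1) had at least 1 CPM (counts scaled to a common library size). Of 5 markers of uterine epithelial identity, ESR1, PGR, PAX8 and SOX17 were present and PAX2 had at most 1 count. ESR1 had 109.9 and 107.3 CPM in the DMSO libraries of A4 and B212 and 97.0 and 86.5 CPM in the E2 libraries. Of 4 endothelial markers PECAM1 had 0 counts in every library and 3 had counts, and VWF alone reached 1 CPM in every library (2.04 to 4.36 CPM). Among blood cell markers CD3E had 0 counts in every library and PTPRC had 0.328 to 0.451 CPM. All 6 stromal fibroblast markers had counts in at least 1 library, and 1 of them reached 1 CPM in every library. Their summed level was 35.1 to 129.8 CPM, and DCN, on that list, had at most 1 count. Libraries of the same clone deviated together from their group means (Pearson r = 0.871 across genes, which are not independent replicates), so the clone was also fitted as a block.

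AREG and EREG, neighbouring ligand genes on chromosome 4, had almost no counts in any library, and their upstream sequences are shown beside that of EGFR, an expressed receptor gene. RefSeq (GRCh38.p14) windows were found for 8 of the 10 genes, with none for ERBB3 and NRG1. Each sequence is the 250 bases before the annotated start, read 5′ to 3′. Capitals mark TATAAA in EREG, TATAAA and the cAMP response element TGACGTCA in AREG, and the GC box GGGCGG, here as its complement CCGCCC, in EGFR.
EREG, chr4:74364895-74365144, plus strand: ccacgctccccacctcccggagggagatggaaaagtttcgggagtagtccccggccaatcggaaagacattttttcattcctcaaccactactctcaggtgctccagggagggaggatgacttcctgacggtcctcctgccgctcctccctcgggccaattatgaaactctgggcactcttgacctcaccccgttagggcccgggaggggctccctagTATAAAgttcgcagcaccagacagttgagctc
AREG, chr4:74444886-74445135, plus strand: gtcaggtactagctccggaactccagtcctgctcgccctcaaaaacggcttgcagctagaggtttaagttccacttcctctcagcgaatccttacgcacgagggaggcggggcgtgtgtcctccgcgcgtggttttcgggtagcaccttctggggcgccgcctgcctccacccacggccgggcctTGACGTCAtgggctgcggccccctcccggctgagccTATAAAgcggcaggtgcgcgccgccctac
EGFR, chr7:55018767-55019016, plus strand: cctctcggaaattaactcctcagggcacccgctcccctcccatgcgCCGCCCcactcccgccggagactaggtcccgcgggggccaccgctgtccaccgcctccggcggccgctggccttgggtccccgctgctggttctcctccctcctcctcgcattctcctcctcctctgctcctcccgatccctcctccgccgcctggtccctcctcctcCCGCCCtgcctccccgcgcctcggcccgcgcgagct

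TATAAA began 32 bases before the start in EREG and 29 bases before it in AREG. With both strands searched, 10.7% of 35116 windows of the same length held TATAAA, 1.65% held TGACGTCA and 42.6% held GGGCGG. The EGFR window printed here held 2 GC boxes and no TATAAA, but a second RefSeq window of EGFR held TATAAA at 2 places and no GC box. The AREG window also held 1 GC box, not capitalised, 9 bases before the start. The palindromic estrogen response element, GGTCA and TGACC with 3 bases between them, was in no window of the 8 genes and in 0.0399% of all windows. GGTCA alone, which the full element contains, occurred once each in windows of TGFA, ERBB4, EREG and HBEGF and in 32.6% of all windows. Several windows lay partly or wholly in exons of the GENCODE 29 annotation, counting exons of any gene. These were all 250 bases for ERBB2, 189 and 192 bases for the TGFA windows, 163 for BTC and 116 for the second EGFR window. Smaller overlaps were 39 bases for ERBB4, 28 for HBEGF and 2 each for EREG and AREG. These matches describe letters in the window only.

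TGFA, transforming growth factor alpha, had the highest level of the 6 ligands in every library. Per kilobase of transcript (1 GENCODE 29 transcript per gene, the longest coding one), its level was 205.5 and 214.2 CPM in the DMSO and E2 libraries of A4 and 122.1 and 149.7 CPM in those of B212. Its mean over the 4 libraries ranked 280 from the top among 18675 genes with a length and a count. TGFA made up 97.0% to 98.4% of the summed level of the 6 ligands. The receptors were led by ERBB2, which made up 54.6% to 59.2% of the summed receptor level, and by ERBB3, with 32.3% to 37.3%. EGFR, the receptor for TGFA, made up 7.68% to 8.84% and ERBB4 at most 0.275%. The plot of levels by gene and library shows this order in each clone.

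**Figure D1:**
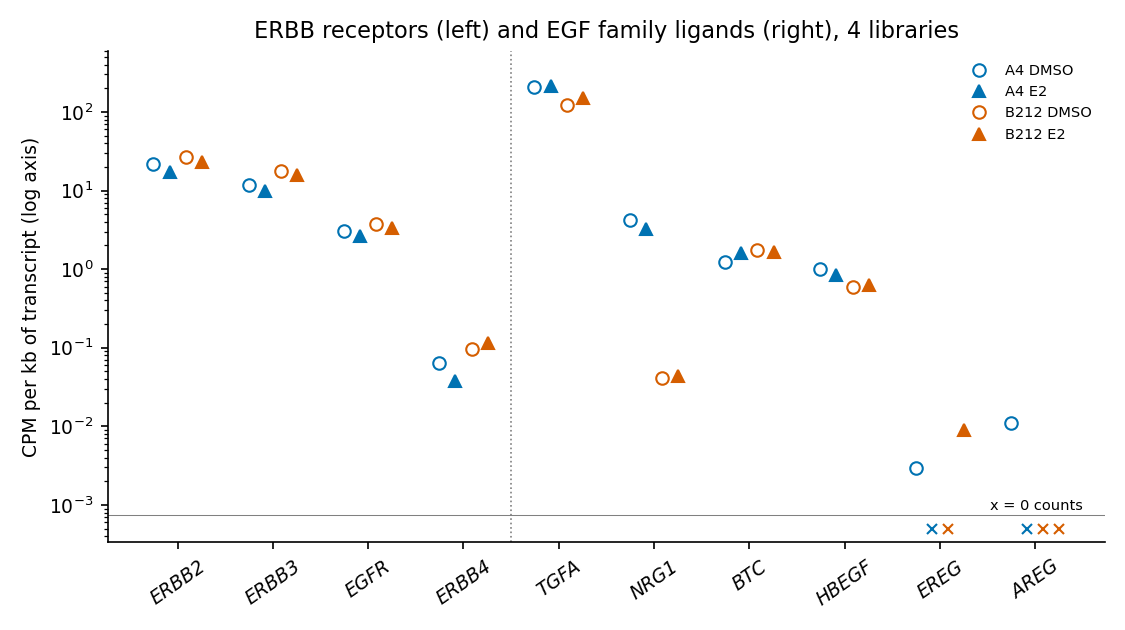
Level of each gene in each library, in CPM per kilobase of transcript on a log axis; circles are DMSO, triangles E2, and crosses mark libraries with 0 counts. TGFA lies at 122.1 to 214.2, above the other 9 genes in all 4 libraries, and NRG1 is the gene whose clones are farthest apart.

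By mean level per kilobase the order was TGFA, ERBB2, ERBB3, EGFR, NRG1, BTC, HBEGF, ERBB4, EREG and AREG. ERBB2 (17.3 to 27.0 CPM per kilobase) and ERBB3 (9.76 to 17.9) overlapped over the 4 libraries, but ERBB2 was above ERBB3 within each of them. EGFR lay at 2.63 to 3.74 CPM per kilobase. NRG1, at 0.0415 to 4.19, spanned both EGFR and BTC, so its place in the order differed between the clones. BTC, betacellulin, lay at 1.23 to 1.75, and HBEGF, heparin-binding EGF-like growth factor, at 0.589 to 0.996, without overlap. ERBB4 lay at 0.0382 to 0.116, below HBEGF in all 4 libraries.

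AREG, amphiregulin, had 1 count in the A4 DMSO library and 0 in the other 3. EREG, epiregulin, had 1 count in A4 DMSO, 0 in A4 E2, 0 in B212 DMSO and 3 in B212 E2. A count of 0 allows up to 0.0351 to 0.0410 CPM here (3 counts, counting error only), so no difference was detectable at this depth for either gene. AREG is uncertain for another reason. RefSeq lists AREGB as a synonym of AREG, and hg19, the build in the submitters' processing notes, carries AREGB as a near-identical copy. AREGB had no row in the table, and how reads shared by the copies were counted is not given in the sources used here. Both genes fell under the count filter, so 8 of the 10 genes were tested.

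The difference between the clones was larger for these genes than the difference with E2. All 4 receptors were higher in B212 than in A4, by 1.24-fold (EGFR) to 2.12-fold (ERBB4), and 3 of the 4 tested ligands (TGFA, HBEGF and NRG1) were lower. The test was edgeR's quasi-likelihood test over 15599 genes with treatment as a covariate and a Benjamini-Hochberg adjusted p under 0.05. It called 51% of all genes, 25.2% higher and 25.8% lower in B212, so 7 of 8 stands against a background where about every second gene was called. The median absolute log2 fold change was 0.61 over the 8 genes and 0.28 over all genes tested. The genes were chosen with earlier results of these data known, so setting these medians side by side is not a test. Where clones are said not to overlap, this describes 2 libraries against 2. The share of all genes without overlap was not computed, so it sets no gene apart. Scaling by total counts alone changed the split of all genes to 4760 higher and 3176 lower, and the direction of each of the 8 genes was the same. With 2 libraries of 1 line each the comparison concerns these cells only, and in bulk RNA fewer cells of a type and less RNA per cell cannot be told apart.

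NRG1, the neuregulin that binds ERBB3 and ERBB4, had 1821 counts in A4 DMSO and 1576 in A4 E2 against 21 in B212 DMSO and 19 in B212 E2. In CPM these were 24.9 and 19.2 in A4 and 0.246 and 0.259 in B212. The clones did not overlap, and the A4 level was 101-fold the B212 level in DMSO and 74.1-fold in E2. The log2 fold change of -6.45 ± 0.16 (SE) had an adjusted p-value in edgeR of 2.56e-17. By absolute fold change NRG1 ranked 36 of 15599 genes. The table counts by gene symbol, so the many NRG1 isoforms cannot be told apart.

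TGFA had 885.5 and 923.2 CPM in A4 (DMSO, E2) and 526.2 and 645.0 CPM in B212. Both A4 libraries were above both B212 libraries, with a log2 fold change of -0.63 ± 0.077 (SE; edgeR, adjusted p-value 1.07e-06). HBEGF, a ligand of EGFR and ERBB4, had 2.38 and 1.99 CPM in A4 and 1.41 and 1.51 CPM in B212, also without overlap. The log2 fold change of -0.58 ± 0.18 (SE) passed in edgeR (adjusted p-value 0.0130). BTC went the other way, with 3.45 and 4.47 CPM in A4 and 4.92 and 4.71 CPM in B212. It did not pass the test (log2 fold change 0.29, 95% interval -0.0017 to 0.58, edgeR adjusted p-value 0.0902), and it passed with library sizes alone as the scaling (0.36, adjusted p-value 0.0308).

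Among the receptors, ERBB3 had 69.7 and 57.8 CPM in A4 (DMSO, E2) and 106.2 and 92.8 CPM in B212. Its clones did not overlap, and the log2 fold change was 0.65 ± 0.070 (SE; edgeR, adjusted p-value 2.34e-07). ERBB2 had 103.6 and 83.1 CPM in A4 and 129.2 and 110.1 CPM in B212. Both B212 libraries were above both A4 libraries, and the log2 fold change was 0.36 ± 0.069 (SE; edgeR, adjusted p-value 2.10e-04). EGFR had 29.95 and 25.9 CPM in A4 and 36.7 and 32.3 CPM in B212, again without overlap. The log2 fold change was 0.31 ± 0.080 (SE; edgeR, adjusted p-value 0.00302). ERBB4 was near the limit of the data, with 56 and 38 counts in A4 and 100 and 103 counts in B212. The log2 fold change was 1.08 ± 0.26 (SE; edgeR, adjusted p-value 0.00192).

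Calls for ERBB3 and NRG1 held with each library left out in turn and in each alternative fit, although ERBB3 is below an absolute log2 fold change of 1. With a library left out, the treatment term also had to go, and its removal from all 4 libraries already lost EGFR (adjusted p-value 0.0928), ERBB2 (0.0883) and HBEGF (0.0609). TGFA was then lost without B212 DMSO (adjusted p-value 0.0528), and EGFR and ERBB2 were lost without A4 E2, B212 DMSO or B212 E2. ERBB4 was lost without A4 E2 (adjusted p-value 0.109) and with DESeq2 (0.0511). HBEGF was lost whichever library was left out and with DESeq2 (0.155). The directions of the 8 genes were the same in all of these fits. Log2 fold changes without 1 library ran from 0.20 to 0.41 for EGFR, from 0.21 to 0.52 for ERBB2 and from 0.75 to 1.46 for ERBB4. They ran from -0.78 to -0.50 for TGFA and from -0.71 to -0.45 for HBEGF.

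**Figure D2:**
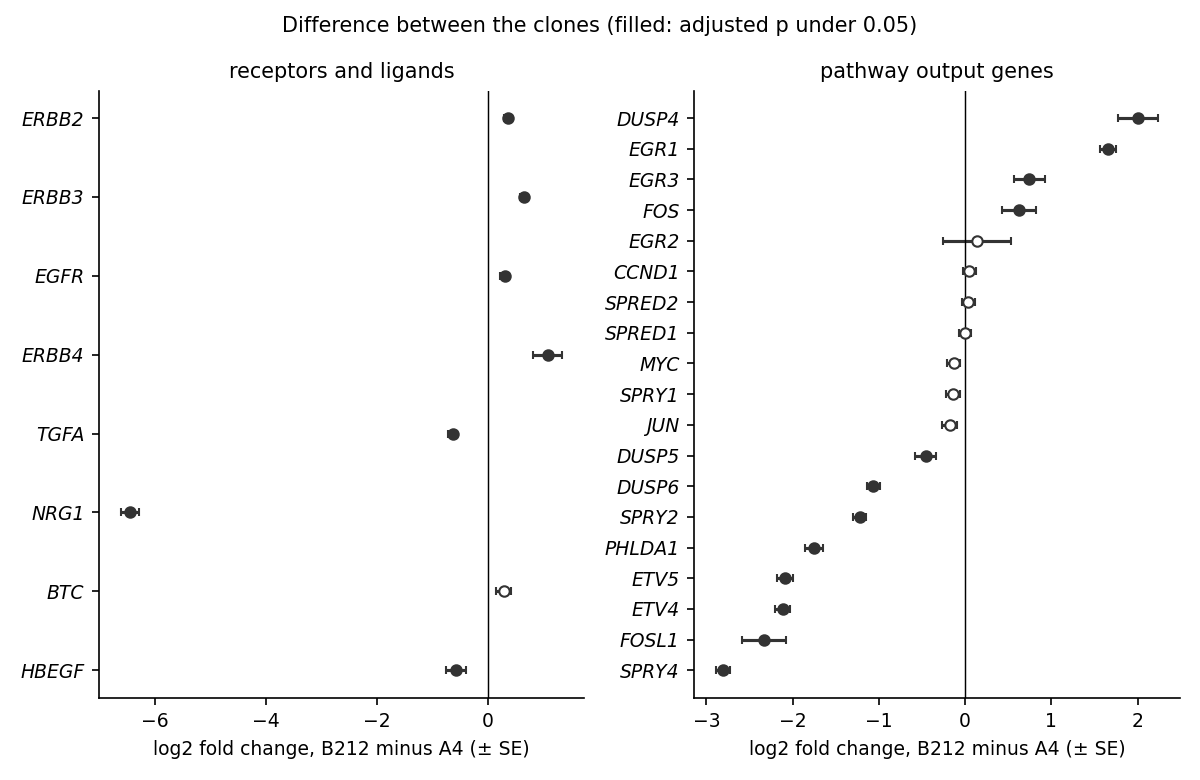
Log2 fold change of B212 against A4 with its SE, for the 8 tested genes (left) and the 19 tested pathway output genes (right); filled points have an edgeR adjusted p under 0.05. The 4 receptors lie to the right of 0, NRG1 lies at -6.45, and SPRY4 has the lowest value of the output genes at -2.80.

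Other markers differed between the clones as well. The summed level of the 7 epithelial markers was 2036 to 2131 CPM in A4 and 2419 to 2649 CPM in B212, with 4 of the 7 higher in B212 and none lower. The summed level of the 6 stromal fibroblast markers was 93.8 to 129.8 CPM in A4 and 35.1 to 42.9 CPM in B212. That sum was nearly all COL1A1, a collagen gene. Of the 6, 3 were tested, and 2 were lower in B212 and 0 higher, where 25.8% of all genes were lower. DCN and LUM, also on the list, were at or near 0. VWF, the 1 endothelial marker tested, was higher in B212 (log2 fold change 0.58, edgeR adjusted p-value 0.00323). The summed endothelial level was 2.15 to 3.45 CPM in A4 and 3.63 to 4.52 CPM in B212. Of the 5 markers of uterine epithelial identity 4 were tested, and 2 were higher in B212 and 1 lower, where 51% of all genes were called. The part of all these markers in the differences of the receptors and ligands was not tested.

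Genes around the receptors followed no common direction between the clones. Of 5 further EGF family ligands, 3 were tested, and EGF was higher in B212 (log2 fold change 0.91, edgeR adjusted p-value 3.19e-04) and NRG4 lower (-0.59, 4.97e-06). NRG4, a ligand of ERBB4, had 35.9 and 38.4 CPM in A4 and 24.7 CPM in each B212 library. NRG3 had 0 counts in every library. Of 8 genes for ligand shedding, 7 were tested, 2 were higher in B212 and 4 lower, where 51% of all genes were called. RHBDF1 (0.84) and RHBDF2 (-0.73), the iRhom proteins that bring ADAM17 to the surface, changed in opposite directions, and ADAM17 itself, the main sheddase of EGFR ligands, was lower by a log2 fold change of -0.23. RHBDL2 (0.97), a rhomboid protease, was higher and ADAM10 (-0.27), another sheddase, was lower, and ADAM10 was not called without the treatment term (adjusted p-value 0.201). ADAM17 was not called with library sizes alone as the scaling (adjusted p-value 0.0535) or without the treatment term (0.0835).

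Of 17 receptor adaptors, all tested, 5 were higher and 3 lower in B212. GAB1 (log2 fold change 0.76), a docking protein, and GRB7 (0.67), which binds ERBB2 and ERBB3, were higher, and SHC1 (-0.45), which links receptors to the RAS pathway, was lower. GAB2 (0.39) was also higher, and PIK3R1 (-0.43), a regulatory subunit of PI3-kinase, and CRKL (-0.23) were lower. CRKL was not called without the treatment term (adjusted p-value 0.101) or with library sizes alone (0.0601). Of 10 receptor inhibitors, 1 was higher and 2 lower. LRIG1 (0.40), a transmembrane inhibitor of ERBB receptors, was higher, and UBASH3B (-0.31) and CBL (-0.22), the ubiquitin ligase that sends EGFR to degradation, were lower. UBASH3B is a phosphatase that counters CBL, so its place on the inhibitor list does not make it an inhibitor of the receptors. Without the treatment term, LRIG1 (adjusted p-value 0.0523), UBASH3B (0.243) and CBL (0.109) were not called, and CBL was also not called with library sizes alone (0.0813). By count, 8 of 17 adaptors and 3 of 10 inhibitors stand at or below the background of 51%.

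Pathway output genes are switched on by MAPK signalling downstream of these and other receptors. Of 20 listed, 19 were tested, and 4 were higher in B212 and 8 lower. Among all genes 51% were called, 25.2% higher and 25.8% lower. The median absolute log2 fold change was 0.75 over the tested output genes against 0.28 over all genes. The list was chosen with earlier results of these data known, so setting these medians side by side is not a test. SPRY4, a feedback inhibitor, had 117.3 and 104.2 CPM in A4 (DMSO, E2) and 15.7 and 16.0 CPM in B212. The log2 fold change was -2.80 ± 0.082 (SE; edgeR, adjusted p-value 2.86e-16). The transcription factors ETV4 (-2.12) and ETV5 (-2.09) were lower as well. EGR1 (1.66), DUSP4 (2.01) and EGR3 (0.75) were higher, so the output genes did not move as one, although more of the called genes were lower than higher. EGR3 was not called with DESeq2 (adjusted p-value 0.0560) or without the treatment term (0.203).

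The comparison of E2 with DMSO asked how the family responds to ligand when the receptor is mutant. Without a block for clone, edgeR passed 0 of the 8 tested genes and 0% of all 15599 genes (0 genes, while 150 had a p-value under 0.05 before adjustment). Taking the clone as a block, edgeR called ERBB2 and ERBB3, both lower with E2, against 9.56% of all genes, 3.44% lower and 6.13% higher. Of the 8 genes, EGFR, ERBB2 and ERBB3 were lower with E2 in both clones and TGFA was higher in both. The other 4 went in opposite directions in the clones. The share of all genes with the same direction in both clones was not computed, so this split has no background to be read against. The median log2 fold change with the block was -0.17 over the 8 genes and -0.0081 over all genes tested.

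ERBB2 went from 103.6 to 83.1 CPM with E2 in A4 and from 129.2 to 110.1 CPM in B212. The groups overlapped, since B212 with E2 was above A4 with DMSO, but the E2 library was lower within each clone. Without the block the log2 fold change was -0.27 ± 0.20 (SE; edgeR, adjusted p-value 0.9999). With the block it was -0.27 ± 0.069 (adjusted p-value 0.0180). ERBB3 went from 69.7 to 57.8 CPM in A4 and from 106.2 to 92.8 CPM in B212. Its groups overlapped in the same way. Without the block the log2 fold change was -0.22 ± 0.33 (SE; edgeR, adjusted p-value 0.9999), and with it -0.23 ± 0.070 (adjusted p-value 0.0413).

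Both calls depended on the processing. When the dependence of each library on length and GC content was removed, the blocked values were -0.12 (edgeR adjusted p-value 0.211) for ERBB2 and -0.10 (0.302) for ERBB3. ERBB3 was also not called with DESeq2 size factors (0.0611), DESeq2 (0.0988) or limma-voom (0.0552), whereas ERBB2 was called under each of these 3. With no block, ERBB3 had a positive log2 fold change without A4 E2 (0.075) and without B212 DMSO (0.095). These fits unbalance the clones, so they do not test the blocked call. Within each clone the log2 fold change of ERBB3 was negative (-0.27 in A4 and -0.19 in B212). MIEN1 and PGAP3 overlap ERBB2 on the opposite strand in GENCODE 29, and the strand setting of the counting is not given in the sources used here. MIEN1 had a blocked log2 fold change of 0.27 and PGAP3 one of -0.033, neither called (edgeR adjusted p-values 0.100 and 0.884). ERBB3 is overlapped on its own strand by the protein-coding entry AC034102.2, which had no row in the table.

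EGFR went from 29.95 to 25.9 CPM in A4 and from 36.7 to 32.3 CPM in B212, a ratio of 0.863 (95% exact interval 0.813 to 0.917) and of 0.880 (0.834 to 0.929). These intervals cover counting error only. Its blocked log2 fold change was -0.20 (95% interval -0.36 to -0.032) and did not pass after adjustment (edgeR adjusted p-value 0.121). TGFA had a ratio of E2 to DMSO of 1.04 (1.03 to 1.05) in A4 and of 1.23 (1.21 to 1.24) in B212, so it was higher in both clones, with a larger ratio in B212 than counting error covers. The difference between the clones in response cannot be tested with 1 library per clone and treatment. The blocked log2 fold change of TGFA was 0.18 (95% interval 0.016 to 0.34, edgeR adjusted p-value 0.154). With no block it was -0.13 without A4 E2 and -0.19 without B212 DMSO, but these fits unbalance the clones and do not test the blocked value.

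**Figure D3:**
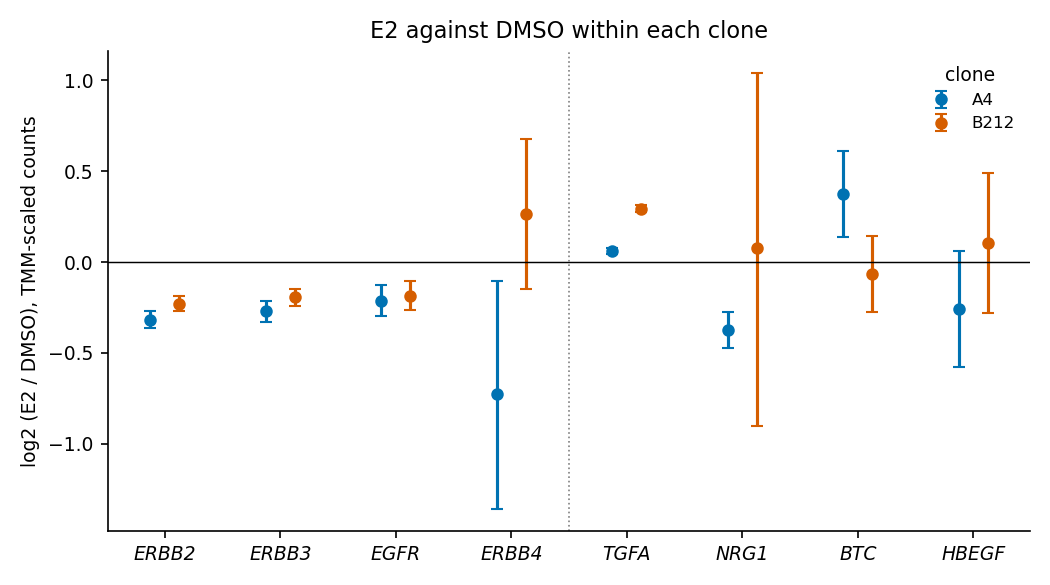
Log2 ratio of E2 to DMSO within each clone for the 8 tested genes, from TMM-scaled counts, with 95% exact intervals that cover counting error only. ERBB2, ERBB3 and EGFR lie below 0 in both clones, TGFA lies above 0 in both, and the intervals of ERBB4, NRG1 and HBEGF are wide in at least 1 clone.

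The ratio of the summed ligand level to the summed receptor level was higher with E2 in both clones. In CPM per kilobase the ratio was 5.80 in DMSO and 7.38 in E2 for A4, and 2.55 and 3.61 for B212. In A4 the receptor sum went from 36.5 to 29.8 and the ligand sum, nearly all TGFA, from 211.9 to 219.9. In B212 they went from 48.7 to 42.1 and from 124.5 to 152.0. The ratio was not tested. With the block and the length and GC trend removed, none of ERBB2 (-0.12), ERBB3 (-0.10) and EGFR (-0.095) was called. The make-up of the receptor sum changed less. ERBB2 took 59.2% in DMSO and 58.3% in E2 in A4, and 55.3% and 54.6% in B212. Among the 6 ligands, NRG1 came next after TGFA in A4 with 1.98% (DMSO) and 1.47% (E2) of the ligand sum, and BTC did in B212 with 1.40% and 1.10%. NRG4, which is not among the 6, was above both, with 30.9 and 33.1 CPM per kilobase in A4 and 21.3 in each B212 library.

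**Figure D4:**
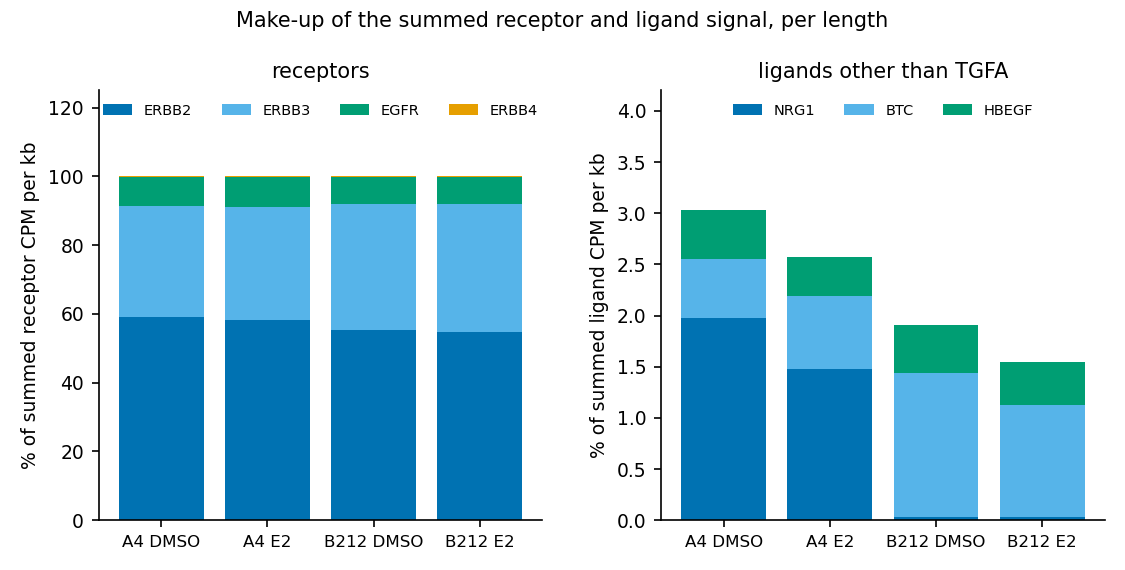
Stacked shares of the summed receptor level (left) and of the summed ligand level (right) in each library, as percent of summed CPM per kilobase. The right panel draws NRG1, BTC and HBEGF only, and its percentages are of the sum of all 6 ligands, TGFA included. ERBB2 and ERBB3 fill most of each receptor bar, and the NRG1 part is 1.98% in A4 DMSO and at most 0.0333% in the B212 libraries.

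With E2 and the clone as a block, 4 of 19 output genes, 3 of 17 adaptors, 1 of 7 shedding genes, 1 of 10 inhibitors and 0 of 3 further ligands passed, where 9.56% of all genes passed. With no block 0 passed in each of these lists. EGR3, an immediate early transcription factor, rose by a log2 fold change of 1.02 (edgeR adjusted p-value 0.00241), from 1.27 to 2.04 CPM in A4 and from 1.68 to 4.09 CPM in B212. JUN, ETV4 and CCND1 were the other called output genes of 19 tested, and they fell by 0.30, 0.29 and 0.25 on the log2 scale. With the length and GC trend removed these 3 were not called, with adjusted p-values of 0.109, 0.0796 and 0.152. They were also not called with DESeq2 size factors (0.0592, 0.0576 and 0.0691). JUN and ETV4 were not called with DESeq2 (0.103 and 0.0988), and ETV4 and CCND1 not with limma-voom (0.0587 and 0.0550). Among the adaptors NCK1 rose (0.33) and PIK3R2 and SHC1 fell by 0.24 and 0.23 on the log2 scale, of 17 tested. None of these 3 was called with the trend removed (adjusted p-values 0.171, 0.337 and 0.180). PIK3R2 and SHC1 were also not called with DESeq2 size factors (0.0589 and 0.0653) or DESeq2 (0.0752 and 0.108), and SHC1 not with limma-voom (0.0575). ADAM10, a sheddase, fell by 0.30. UBASH3B, the called gene of the inhibitor list although it counters CBL, fell by 0.42. ADAM10, UBASH3B and EGR3 were called with the trend removed as well (adjusted p-values 0.00500, 7.30e-04 and 0.00177). For EGR3 the blocked DESeq2 fit gave no adjusted p-value (log2 fold change 0.99). VWF, the endothelial marker, also fell with E2 in the blocked fit (-0.49, edgeR adjusted p-value 0.0441), as did 1 of 7 epithelial and 1 of 3 tested stromal markers. Of 4 tested markers of uterine epithelial identity, 1 was higher and 2 lower with E2 in that fit. The part of these markers in the E2 differences was not tested.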

How the data were processed

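RNA sequencing was made from poly(A)-selected RNA with a stranded kit, per the labels' protocols. The deposited table gives whole-number counts of reads for each gene symbol, not normalized. HISAT2, SAMtools, featureCounts, DESeq2 and the build hg19 are named in the submitters' processing notes, without versions. The annotation and the strand setting are not given in the sources used here. Another 4 count columns matched no sample and were not used. Columns were placed in groups by the treatment in their names, and clones by the tags A4 and B212. Nothing says that libraries came from separate cultures beyond the clones, and no combination of clone and treatment had a repeat library. In the E2 fit with no block, p-values measure the spread between the clones. In the blocked E2 fit and the clone fit, they measure how far the E2 difference varied between the clones, with information shared across genes. None of these p-values is set against the spread of repeat libraries.

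Genes were kept by filterByExpr of edgeR 4.0.16 (minimum count 10), scaled by TMM (trimmed mean of M values) and tested by its quasi-likelihood test with Benjamini-Hochberg adjustment (threshold 0.05). Treatment was tested with no block, and the clone was tested with treatment as a covariate. Same-clone columns share a cell line, and their deviations from group means correlated (r = 0.871), so the blocked fit is given wherever it changes a call. Each SE was the fold change divided by the root of its F statistic. Within-clone ratios have 95% exact binomial intervals. Lengths and GC content came from GENCODE 29 and covered 93.5% of tested genes. The 10 genes and the gene lists were chosen with earlier results of these data known. The blood cell marker list is not reported here in full. All 10 genes are named, and of each other list up to 3 called genes per direction, ordered by p-value. In simulated counts for 15599 genes, with 200 changed by 1 on the log2 scale, the fit with no block recovered 0, the blocked fit 189 and the clone comparison 182. False calls were 0, 7 and 4. Every simulated gene had the same dispersion, and a changed gene changed alike in both clones or in both treatments. These changes were larger than those of ERBB2 and ERBB3 with E2, so the recovery does not apply to those calls. Alternatives used DESeq2 1.42.0, limma 3.58.1 (voom) and, for the trend, mgcv 1.9.3. R 4.3.3, Python 3.11.15 and matplotlib 3.10.9 were used.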

Additional observations from a re-analysis of the deposited data

Results flagged for a closer look

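Of the 8 tested genes, 4 went in opposite directions with E2 in the clones. Each clone had 1 library per treatment, so these differences were not tested, and the share of all genes with opposite directions was not computed.

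ERBB4 had a log2 fold change with E2 of -0.69 in A4 and 0.26 in B212, which differ by 0.95. The counts went from 56 to 38 in A4 and from 100 to 103 in B212, and the 95% exact intervals of the ratio were 0.390 to 0.931 and 0.902 to 1.595. BTC had log2 fold changes of 0.37 in A4 and -0.064 in B212 (B212 minus A4, -0.43). Its ratio intervals were 1.10 to 1.53 in A4 and 0.827 to 1.11 in B212, which overlap by a narrow margin. NRG1 had log2 fold changes of -0.37 in A4 and 0.068 in B212, which differ by 0.44. Its B212 value rests on 21 and 19 counts, and that ratio interval, 0.536 to 2.06, held the A4 interval of 0.722 to 0.827. HBEGF had log2 fold changes of -0.25 in A4 and 0.11 in B212, which differ by 0.36, and both of its ratio intervals (0.671 to 1.04 and 0.824 to 1.41) included 1. All of these intervals cover counting error only.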

How the results depend on the processing

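Alternatives were planned, except the blocked fits with library size only and with no filter. For E2 with no block, DESeq2 called 1 gene, RPSAP58 (-1.53), which lies outside the rule for naming. The clone as a replicate block gave 1492 genes and 2 of the 8 tested members. With the block and DESeq2 size factors these were 717 and 1, with DESeq2 562 and 1, with limma-voom 1138 and 1, with library size only 1685 and 2, and with no filter 1770 and 2. With the block and the length and GC trend removed they were 904 and 0. The block changed no other member's call. For the clones, the 7950 genes and 7 members became 4456 and 4 with no treatment term and 1723 and 2 when a log2 change of 1 or more either way was required. Without 1 library they were 3203 to 5754 genes and 3 to 6 members. Leaving out a library gave no E2 call, but these fits had no block, and with all 4 libraries that fit gave 0 as well.

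Leaving out libraries turned the E2 sign of 6 members with no block: ERBB3 (-0.61 to 0.095), ERBB4 (-1.06 to 0.53), TGFA (-0.19 to 0.58), HBEGF (-0.45 to 0.32), BTC (-0.096 to 0.40) and NRG1 (-5.59 to 5.31). These fits unbalance the clones. Limma-voom with no block gave NRG1 as 0.058, and the cause was not tested. No setting turned a member's sign between the clones. Low counts limit ERBB4, HBEGF, AREG, EREG and NRG1 in B212.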

Other observations

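The neighbours of NRG1 in the RefSeq gene order were examined after its clone difference was seen. Of the 5 tested protein-coding genes on each side, 6 were lower in B212, 1 (ZNF703) was higher and 3 were not called, where 25.8% of all genes were lower and 25.2% higher. Their log2 fold changes ran from -1.61 (DUSP26) to 0.83 (ZNF703), against -6.45 for NRG1. WRN, the nearest tested gene on one side, had -0.024, and MAK16, the nearest on the other side, had -0.43. Around ERBB2, 6 of 10 such neighbours were higher and 2 lower, from -0.74 (PSMD3) to 2.23 (TCAP). TCAP had 5 to 28 counts per library. Around ERBB4, which was itself higher in B212, 8 of 10 neighbours were higher and 1 lower, from -0.22 (ATIC) to 2.41 (CPS1). Around EGFR, ERBB3, TGFA and HBEGF, 2 to 3 of 10 were higher and 4 to 5 lower.

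EPGN, EREG, AREG and BTC lie side by side on chromosome 4 in that order. EPGN, epigen, had 6 to 16 counts per library, whereas BTC had 253 to 420. The low counts of EREG and AREG therefore did not extend to every ligand gene of the cluster.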
